A study of Xenopus laevis with 12 samples.

Results

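Potassium channel genes are described here across ribosome-bound RNA of frog retinal ganglion cells during the days after optic nerve crush. The members are all gene models whose symbol, without its copy ending, begins with kcn. They number 106 of 45099 models, with 54 voltage-gated, 16 inward rectifier, 12 two-pore and 3 calcium-activated channel models and 21 models of auxiliary subunits. Xenopus laevis has an ancestrally duplicated genome, so that most genes occur as a .L and a .S copy, and each copy is a model of its own here. Of the 106 models, 5 had no count in any library and 37 averaged under 1 CPM, the counts of a gene scaled to library size. Gene sequences are not shown.

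The groups were the crushed right eye at days 1, 3, 7 and 11 after surgery, the unoperated contralateral left eye of the same frogs on those days, the right and left eyes of frogs with sham surgery at day 1, the retinas of unoperated (naive) frogs, and total retina RNA. All frogs were post-metamorphic F1 progeny, older than 6 months, of single founder females carrying the islet2b:EGFP-rpl10a transgene, which puts an EGFP-tagged ribosomal protein under an islet2b promoter. In the method, called TRAP, antibodies to EGFP pull down tagged ribosomes with the RNA on them from retinas freed of lens and pigment epithelium. Each of the 11 TRAP libraries was a pool of 3 biological replicates, so every condition is 1 library. The crush is taken to be in the right eye, as labelled, although 1 sentence of the design gives the left.

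Potassium channels let K+ leave the cell and so set the resting potential, end each action potential and limit how often a neuron fires. Voltage-gated channels assemble from 4 pore subunits, and some subunits form no channel alone but modify the Kcnb family when they join it. Inward rectifiers and two-pore channels hold the membrane near rest, calcium-activated channels respond to calcium entry, and auxiliary subunits alter the gating or surface delivery of the pores. Ganglion cells, whose axons form the optic nerve, are the spiking output neurons of the retina.

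Libraries held 16820571 to 63299998 expected counts, of which members took 0.0612% to 0.313%. Markers of ganglion cells summed to 16569 to 17747 CPM in the 7 TRAP libraries of uninjured eyes (naive, both sham, 4 contralateral), against 1823 CPM in total retina. Photoreceptor markers summed to 3622 to 4482 CPM in those TRAP libraries, against 45109 CPM in total retina, so that RNA of other cells was reduced and still present. All CPM values are TMM-scaled, meaning that library sizes were adjusted so that most genes have like levels.

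In uninjured ganglion cell RNA the calcium sensor kcnip3 was the most abundant potassium channel gene, and pore subunits that are silent alone stood close to the top. Per kilobase of gene length, kcnip3.L had a median of 378 CPM over the 7 uninjured libraries, with a range of 366 to 387. The next was kcnip1-like.S at 92.3 CPM per kb (range 81.5 to 102.6), and both proteins are members of the KChIP group that binds Kcnd channels in mammals. Neither range overlapped that of the next model in the order.

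The highest pore subunit was kcna1.L, a low-threshold channel of axons in mammals, at a median of 68.7 CPM per kb (61.2 to 78.4). It overlapped kcnf1.L at 62.4 CPM per kb, which in turn overlapped kcns1.L at 44.3. Both kcnf1 and kcns1 encode subunits that are silent alone. After a gap came kcnf1.S at 30.8, the two-pore channel kcnk1.L at 27.9, kcns1.S at 24.5 and the large-conductance calcium-activated channel kcnma1.1 at 20.1 CPM per kb. These 4, and every further neighbour among the 25 highest models, overlapped the next in the order. Without division by length the order differs, with uninjured medians of 133 CPM for kcnf1.L, 106 for kcna1.L and 76.7 for kcnip1-like.S. Deposited lengths differ even between copies, at 846 bases for kcnd3.L and 5141 for kcnd3.S.

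Set against total retina, potassium channel models lay on both sides. Of the 58 with at least 200 counts over naive TRAP and total retina, 21 were over 2-fold above total retina and 16 over 2-fold below it, with all 7 uninjured TRAP libraries on the same side each time. Over all models the shares were 18.9% above and 19.3% below, against 36.2% and 27.6% of the members. By class, 11 of 32 voltage-gated models were above and 7 below, and of 12 auxiliary models 6 were above and 3 below. All 6 inward rectifiers were below, 4 of 5 two-pore models were above and none below, and the 3 calcium-activated models were within 2-fold. No test is possible, with 1 library of total retina.

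The models with the highest ratios of naive TRAP RNA to total retina were kcns1.L, kcna1.L, kcns1.S, kcnk1.S and kcnf1.S. For kcns1.L, naive TRAP had 87.6 CPM and the 7 uninjured libraries 74.8 to 99.2, against 4.50 CPM in total retina, a log2 ratio of 4.27. The ratio was 4.19 for kcna1.L, 3.95 for kcns1.S, 3.69 for kcnk1.S and 3.67 for kcnf1.S. These models were thus over 12-fold higher in the ganglion cell RNA.

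The inward rectifier models had a median log2 ratio of -3.30 to total retina. The lowest was kcnj14.S, at 1.24 to 4.86 CPM in uninjured TRAP libraries against 42.5 CPM in total retina, and kcnj14.L had 11.4 to 16.7 against 143 CPM. For kcnj10.L, whose mammalian product is the main potassium channel of Müller glia, the values were 0.687 to 3.88 against 11.8 CPM. Also among the 5 lowest ratios were kcnj4.L, at 3.22 to 7.04 against 48.8 CPM, and kcnv2.1, at 1.26 to 2.73 against 29.7 CPM. In mammals kcnv2 is a silent subunit of photoreceptors. TRAP libraries hold some RNA of other cells, and the part of that RNA in these low levels was not tested.

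**Figure D1:**
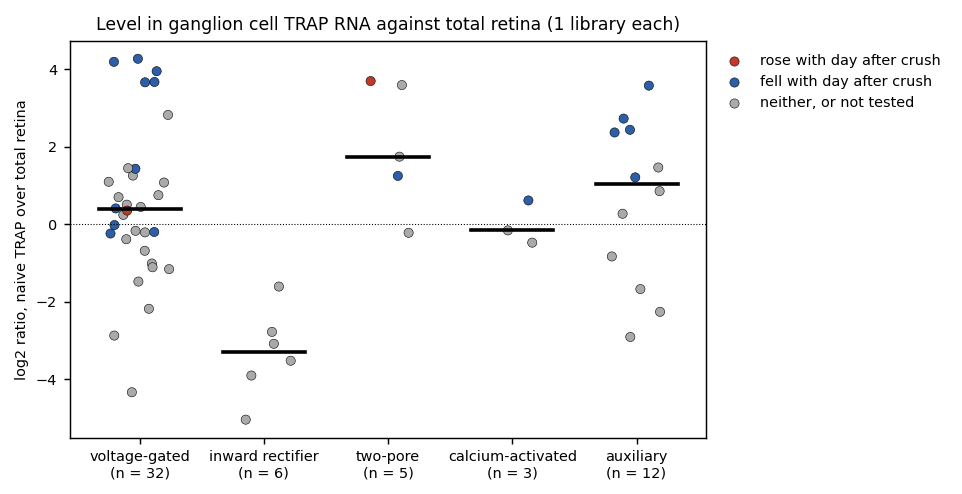
Log2 ratio of naive TRAP RNA to total retina (y axis) for the 58 potassium channel models with 200 counts over both libraries, by class (x axis), with 1 point per model and a bar at each class median. Colour shows whether the ratio of crushed to contralateral eye rose, fell or did neither with day. All 6 inward rectifiers lie below 0, and the 2 kcns1 copies, kcna1.L, kcnk1.S and kcnf1.S are the highest.

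After crush, the summed level of potassium channel models was far lower by day 7, and the makeup of what remained differed. All members together summed to 2846, 1736, 809.9 and 751 CPM in the crushed eye at days 1, 3, 7 and 11, against 2942, 3021, 2825 and 2754 CPM in the contralateral eye. In the 7 uninjured libraries 55.9% to 61.1% of that sum was 1 model, kcnip3.L. Without kcnip3.L the members summed to 761 and 712 CPM in the crushed eye at days 7 and 11, against 1071 to 1310 CPM uninjured. Auxiliary subunits summed to 107 and 91.2 CPM in the crushed eye at days 7 and 11, against 1798 to 1894 CPM in the 7 uninjured libraries. Voltage-gated models summed to 482 and 448 CPM on those days, against 749.5 to 954 CPM uninjured. The two-pore sum was higher, with 146 and 155 CPM in the crushed eye at days 7 and 11 against 78.7 to 98.5 CPM uninjured. That sum was mostly kcnk1, since of 5 two-pore models the 2 kcnk1 copies lay above the uninjured range on both days and the other 3 below it, and the median log2 ratio of crushed to contralateral eye over the 5 was -1.48 and -0.89. In RNA from pooled retinas, fewer ganglion cells and less RNA of a gene per cell cannot be told apart.

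**Figure D2:**
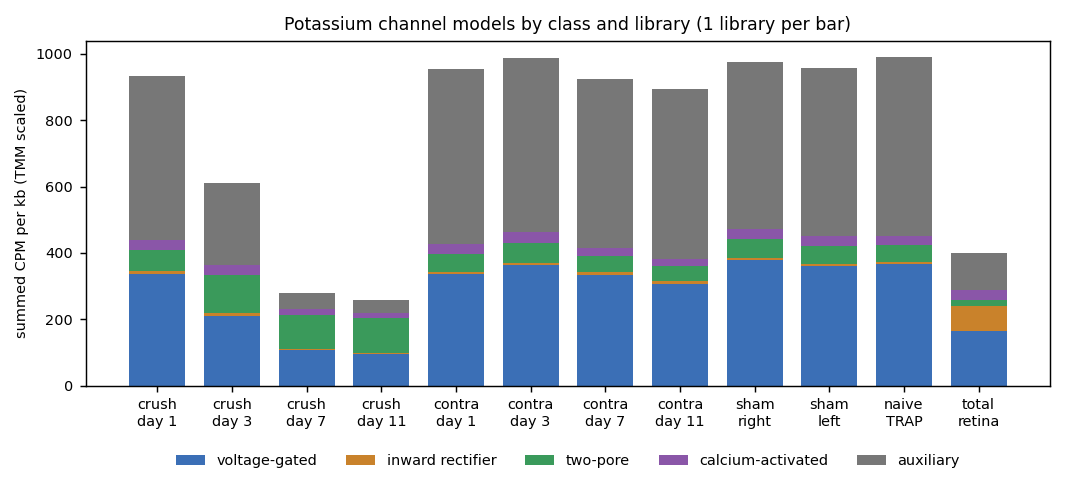
Summed level of the potassium channel models of each class (y axis, TMM-scaled CPM per kb of gene length), stacked, with 1 bar per library (x axis). The total is 280.2 and 259 CPM per kb in the crushed eye at days 7 and 11, against 893 to 989.7 in the uninjured TRAP libraries, while the two-pore part is 101 and 105 against 46.1 to 60.1.

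The change over time was tested as a slope, the change in the log2 ratio of crushed to contralateral eye for each doubling of the day, fitted over all models with edgeR's quasi-likelihood test and a day block. This asks whether the ratio changed along a line in log2(day) over the 4 days, with 2 residual degrees of freedom, and each day is 1 pair of pools. The filter on low counts left 80 of the 106 members. At a Benjamini-Hochberg adjusted p under 0.05, 18 members fell with day and 2 rose. That is 22.5% and 2.50% of those tested, against 6.85% and 5.83% of all models. The median slope was -0.44 over the members and -0.03 over all models. Without the day 7 pair 7 members fell, beside 954 of 26185 models. Without the day 11 pair 10 did, beside 660 of 26040 models. With all 4 days 1781 of 26004 models fell. Of the 20 calls, 8 held with any 1 day left out, and 12 needed a particular day, named with each below.

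By class, 11 of 47 tested voltage-gated models fell and 1 rose, 5 of 16 auxiliary models fell, and 1 of 3 calcium-activated models fell. Among two-pore models 1 of 6 fell and 1 rose. Of 8 inward rectifiers edgeR called none, with 1 at an unadjusted p under 0.05, while DESeq2 called the sparse kcnj10.S as fallen. Over the 4 days as a whole, edgeR called no member for a shared crush effect, with 22 at an unadjusted p under 0.05. Over all models, 0.0385% were called higher, none lower, and 20.7% had an unadjusted p under 0.05. DESeq2 called 2 members higher and 17 lower over the 4 days, beside 1622 and 1458 of 26004 models. Limma-voom called no member, beside 16 models higher and 0 lower. Without the day 1 pair edgeR called 2 members higher and 16 lower, beside 1611 and 1067 of 25761 models.

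Day by day, the ratio of crushed to contralateral eye had no test. Among members with 200 counts over both libraries, 3 of 59 passed 2-fold upward at day 1 and 2 passed it downward (1.32% and 0.76% of all models). The counts were 5 higher and 14 lower of 49 at day 3 (8.18% and 5.49% of all models) and 3 higher and 24 lower of 44 at day 7 (20.7% and 14.9%). At day 11 they were 2 higher and 31 lower of 50 (19.6% and 19.3%). The sham right eye against the sham left had 1 member of 49 past 2-fold higher and none lower (0.458% and 0.901% of all models).

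The median log2 ratio of the members was 0.12, -0.33, -1.08 and -1.31 at days 1, 3, 7 and 11, against 0.00, -0.01, 0.15 and 0.05 over all models. Scaling by total counts moves every log2 ratio by -0.29 at day 7, by -0.38 at day 11 and by -0.11 for naive TRAP against total retina. At both days 7 and 11 the crushed eye lay below the range of the 7 uninjured TRAP libraries for 38 of 65 members and above it for 5. Over all models 29.1% were below and 31.2% above.

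Markers of ganglion cells moved as well. Of 28 tested models on that list, 17 fell with day and 1 rose. The sum was 8726 and 13536 CPM in the crushed eye at days 7 and 11, against 16569 to 17747 CPM in uninjured libraries. The typical ganglion cell marker was lower than that sum shows. Among models with enough counts, the median log2 ratio of crushed to contralateral eye was -2.95 at day 7 and -2.39 at day 11. Of 26 models on the ganglion cell list, 22 lay below the uninjured range on both days and 2 above it. Photoreceptor markers summed to 2963 and 3013 CPM at days 7 and 11, against 3622 to 4482 CPM, and markers of leukocytes and microglia to 6.50 and 6.35 CPM against 7.10 to 10.2 CPM. Bipolar cell markers summed to 111 and 135 CPM against 358 to 409 CPM, and those of amacrine and horizontal cells to 136 and 138 CPM against 166 to 194 CPM. Markers of oligodendrocytes and Schwann cells summed to 236 and 190 CPM against 593 to 749.7 CPM, with 243 CPM in total retina. Of 5 models on that list, 2 lay above the uninjured range on both days and 1 below it. Their median log2 ratio of crushed to contralateral eye was -0.78 at day 7 and -0.16 at day 11. Endothelial and blood cell markers had a higher sum, at 176 and 160.1 CPM against 85.1 to 108 CPM. Of 11 models on that list averaging at least 1 CPM, 2 lay above the uninjured range on both days and 2 below it. In that sum acta2.L had 57.6 and 97.5 CPM, against 30.5 to 40.4 CPM uninjured. Another model, cldn5.L, had 76.1 and 17.7 CPM, against 12.8 to 19.5 CPM. Markers of Müller glia and astrocytes summed to 661 and 967 CPM against 543 to 672 CPM. Without vim.L, at 198 and 404 CPM against 5.15 to 11.0 CPM, that sum was 463 and 563 CPM against 537 to 663 CPM. Of 22 models on the list 6 lay above the uninjured range on both days and 6 below it, and kcnj10 and kcnj13 are both on it. The part of these changes in the potassium channel results was not tested.

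**Figure D3:**
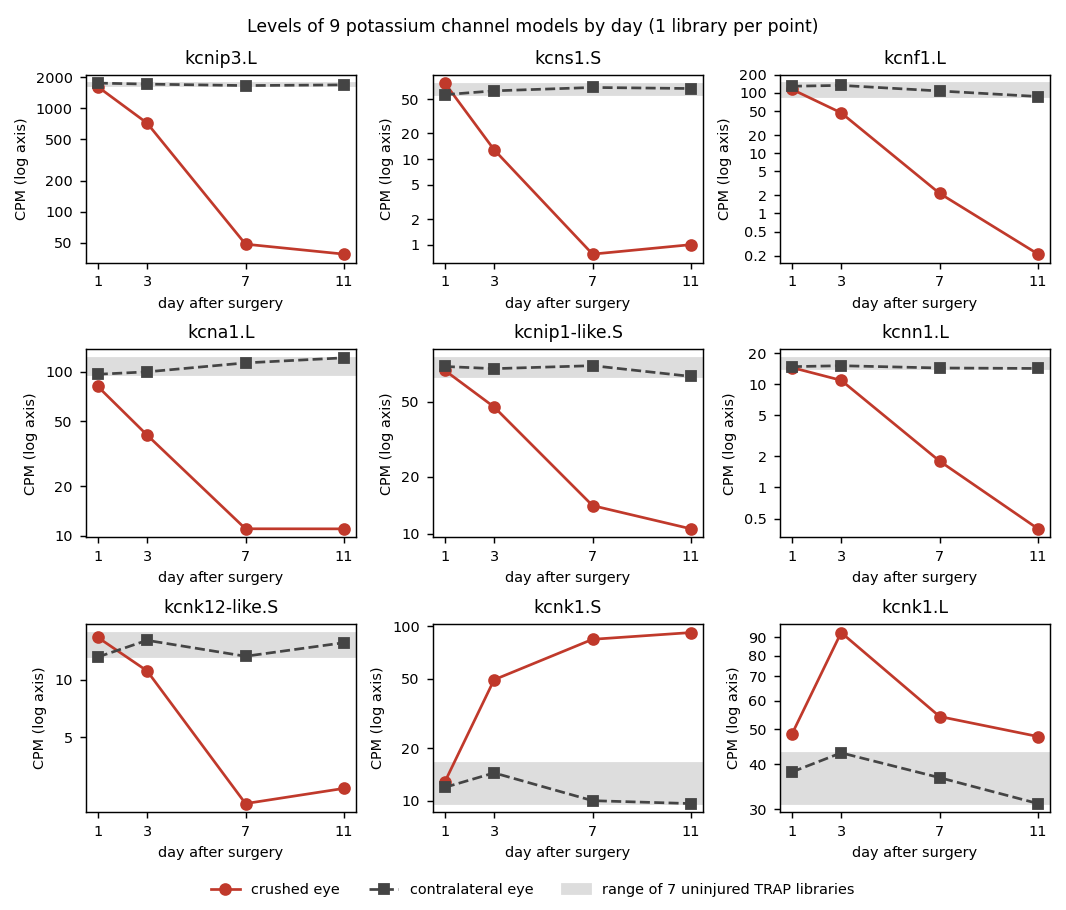
Level of 9 potassium channel models (y axis, TMM-scaled CPM, log axis) by day after surgery (x axis) in the crushed eye and the contralateral eye, 1 library per point, with the range of the 7 uninjured TRAP libraries in grey. In the first 7 panels the crushed eye is below the grey range at days 3, 7 and 11, and in the kcnk1.S and kcnk1.L panels it is above it on those days.

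All 5 auxiliary models that fell with day were KChIP calcium sensors. For kcnip3.L, which in mammals also acts as a transcriptional repressor, the crushed eye had 1613, 719, 48.6 and 38.9 CPM at days 1, 3, 7 and 11. The contralateral eye had 1751, 1711, 1657 and 1683 CPM. The crushed eye was lowest on the last days, below all 7 uninjured libraries (1657 to 1751 CPM) from day 1 on, and the 2 eyes did not overlap. Its slope was -1.69 ± 0.23 log2 per doubling of the day (SE implied by the F test, edgeR adjusted p = 0.00645, 4 pairs). This call held with any day left out. The model made up 6.00% and 5.18% of all member CPM in the crushed eye at days 7 and 11, against 55.9% to 61.1% in uninjured libraries.

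Its copy kcnip3.S was far less abundant and fell by 2.47 ± 0.46 per doubling (edgeR adjusted p = 0.0134; 0.0839 without day 7). It had 8.79, 3.76, 0.0928 and 0 CPM in the crushed eye at days 1, 3, 7 and 11, against 6.00, 6.21, 6.75 and 8.99 CPM in the contralateral eye. With no count in the crushed eye at day 11, it was at least 113-fold lower there, taking 3 counts per library as the floor.

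The second most abundant member per kilobase, kcnip1-like.S, had 73.1, 46.8, 14.1 and 10.6 CPM in the crushed eye. The contralateral eye had 76.7, 74.7, 77.5 and 67.9 CPM. The slope of kcnip1-like.S was -0.83 ± 0.13 (edgeR adjusted p = 0.00642) and held with any day left out. Both kcnip2-like copies fell at lower levels. The .L copy had 7.89, 2.95, 0.984 and 1.32 CPM in the crushed eye against 8.66, 10.0, 7.95 and 10.3 CPM, and the .S copy 4.60, 2.50, 0.279 and 0.715 against 6.44, 8.35, 7.84 and 9.53 CPM.

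The slope of kcnip2-like.L was -0.88 ± 0.20 (edgeR adjusted p = 0.0188), with p of 0.249, 0.0591 and 0.0526 without day 1, 7 or 11. That of kcnip2-like.S was -1.14 ± 0.27 (edgeR adjusted p = 0.0224), with p of 0.0981 and 0.0511 without day 1 or 7. The remaining 11 tested auxiliary models were not called. One of them, kcnmb2-like.S, a beta subunit of large-conductance channels, had 21.4 and 20.4 CPM in the crushed eye at days 7 and 11, above the uninjured range of 7.95 to 15.6 CPM. Its copy kcnmb2-like.L had 4.79 and 3.94 CPM against 6.32 to 10.5 CPM. Their slopes were 0.30 (edgeR adjusted p = 0.306) and -0.36 (edgeR adjusted p = 0.213).

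The silent pore subunits, which in mammals join Kcnb channels and change their gating, included the 4 steepest called falls among pore-forming genes, both copies of kcns1 and kcnf1. For kcns1.S the crushed eye had 76.8, 12.8, 0.780 and 1.01 CPM at days 1, 3, 7 and 11, and the contralateral eye 56.2, 62.3, 68.3 and 66.4 CPM. The crushed eye was highest of all at day 1 and below every uninjured library from day 3 on. Its slope of -2.10 ± 0.22 (edgeR adjusted p = 0.00324) held with any day left out.

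The .L copy of kcns1 had 91.3, 36.3, 1.19 and 0.397 CPM in the crushed eye, against 80.3, 85.3, 85.6 and 74.8 CPM in the contralateral eye. Its slope was -2.31 ± 0.34 (edgeR adjusted p = 0.0118), with p of 0.115 and 0.151 without day 7 or 11. At day 1 the crushed eye was inside the uninjured range of 74.8 to 99.2 CPM.

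For kcnf1.L the crushed eye had 115, 46.7, 2.15 and 0.212 CPM, against 129, 133, 108 and 87.0 CPM in the contralateral eye. The .S copy had 56.5, 27.9, 1.26 and 1.06 CPM, against 62.2, 68.5, 58.3 and 42.1 CPM. Neither copy overlapped its contralateral values after day 1. The slopes were -2.25 ± 0.36 for kcnf1.L (edgeR adjusted p = 0.0160; 0.259 without day 7) and -1.70 ± 0.27 for kcnf1.S (0.0109; 0.0924 without day 11).

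In the kcng family, also of silent subunits, kcng2.S fell by 1.53 ± 0.43 per doubling (edgeR adjusted p = 0.0456; 0.151, 0.160 and 0.114 without day 1, 7 or 11). It was sparse, at 2.66, 1.52, 0.186 and 0.159 CPM in the crushed eye against 1.29, 1.75, 2.92 and 1.84 CPM, and at 5.47 and 2.58 CPM in the sham right and left eyes. Its copy kcng2.L had 8.43, 7.29, 3.25 and 4.74 CPM in the crushed eye against 4.68, 6.87, 7.61 and 4.92 CPM, and was not called (slope -0.41, edgeR adjusted p = 0.279).

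The kcns2 copies differed in their course. For kcns2.L the crushed eye had 11.7, 6.88, 1.99 and 1.96 CPM, against 9.31, 14.4, 12.8 and 9.61 CPM, with a slope of -0.87 ± 0.19 (edgeR adjusted p = 0.0167; 0.155 and 0.0544 without day 1 or 7). For kcns2.S the crushed eye had 3.68, 16.3, 1.24 and 1.93 CPM against 2.54, 2.62, 1.49 and 1.23 CPM. The day 3 value stood above all other TRAP libraries, and the slope of -0.17 was not called (edgeR adjusted p = 0.803), nor was the difference between the copies tested. This day 3 value was singled out after the values were seen. The silent subunit kcnv2.1, low in TRAP RNA, had 1.69, 2.19, 0.706 and 1.48 CPM in the crushed eye against 2.73, 2.70, 1.26 and 2.06 CPM (slope 0.01, edgeR adjusted p = 0.994).

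Among voltage-gated subunits that open on their own, kcna1.L had the steepest fall of those called. The crushed eye had 81.4, 41.2, 11.0 and 11.0 CPM at days 1, 3, 7 and 11, against 96.6, 99.9, 113 and 122 CPM in the contralateral eye, and the 2 eyes did not overlap. Its log2 ratio was -3.35 at day 7 and -3.46 at day 11, and the slope of -1.02 ± 0.13 (edgeR adjusted p = 0.00375) held with any day left out. The copy kcna1.S was sparse, at 4.41, 5.10, 2.10 and 1.75 CPM against 6.56, 6.43, 5.38 and 4.20 CPM, and was not called (slope -0.26, edgeR adjusted p = 0.492).

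The A-type channels kcna4 and kcnd3 inactivate quickly and delay firing. For kcna4.S the crushed eye had 15.6, 15.3, 3.47 and 2.94 CPM, against 13.9, 14.2, 12.8 and 14.1 CPM, so that the fall came after day 3. For kcnd3.S it had 27.3, 18.1, 9.12 and 6.30 CPM, against 25.1, 29.4, 21.9 and 20.9 CPM. The slope was -0.77 ± 0.19 for kcna4.S (edgeR adjusted p = 0.0270; 0.0712 and 0.155 without day 7 or 11). It was -0.53 ± 0.13 for kcnd3.S (edgeR adjusted p = 0.0260; 0.151, 0.0826 and 0.187 without day 1, 7 or 11). The copies kcna4.L and kcnd3.L had slopes of -0.54 and -0.69 that were not called (edgeR adjusted p = 0.0601 and 0.0955).

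The delayed rectifier kcnb2.S, of the family that silent subunits join, had 42.4, 30.8, 11.5 and 10.7 CPM in the crushed eye, against 46.0, 44.0, 33.2 and 33.2 CPM. Its slope was -0.48 ± 0.12 (edgeR adjusted p = 0.0299; 0.0605, 0.117 and 0.155 without day 1, 7 or 11). The channel kcnc1, which in mammals repolarizes fast-firing neurons, fell as its .L copy, at 44.0, 34.6, 17.5 and 7.60 CPM in the crushed eye against 42.3, 42.2, 37.2 and 27.2 CPM. That slope was -0.53 ± 0.13 (edgeR adjusted p = 0.0245; 0.0568 and 0.262 without day 7 or 11). The .S copy had 48.5, 23.5, 22.0 and 25.1 CPM against 44.8, 53.6, 44.1 and 38.4 CPM and was not called (slope -0.23, edgeR adjusted p = 0.356).

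Both models of kcnk1, a two-pore channel of weak inward-rectifying current in mammals, were above the uninjured range at days 7 and 11 under TMM scaling. For kcnk1.S the crushed eye had 12.8, 49.3, 84.1 and 91.9 CPM at days 1, 3, 7 and 11, against 11.9, 14.4, 10.0 and 9.64 CPM in the contralateral eye. The eyes were alike at day 1 and apart from day 3. Its log2 ratio was 3.06 and 3.25 at days 7 and 11, and the slope of 0.94 ± 0.12 (edgeR adjusted p = 0.00356) held with any day left out.

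The copy kcnk1.L had 48.5, 92.6, 54.2 and 47.7 CPM in the crushed eye, against 38.1, 43.0, 36.7 and 31.1 CPM in the contralateral eye. It was above the uninjured range of 31.1 to 43.0 CPM on all 4 days, with its peak at day 3, and its slope of 0.03 was not called (edgeR adjusted p = 0.895). Under scaling by total counts the slope was -0.08, and 4 members, without kcnk1.L, lay above the uninjured range at days 7 and 11. Per kilobase the 2 copies held 96.4% and 93.1% of the two-pore class at days 7 and 11 in the crushed eye, against 63.4% to 70.3% uninjured.

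The two-pore model that fell was kcnk12-like.S, whose mammalian namesake belongs to the halothane-inhibited channels. It had 16.7, 11.1, 2.25 and 2.70 CPM in the crushed eye, against 13.2, 16.1, 13.3 and 15.6 CPM in the contralateral eye. Its slope of -0.93 ± 0.17 (edgeR adjusted p = 0.0107) held with any day left out. The copy kcnk12-like.L had 13.7, 6.75, 3.16 and 6.56 CPM against 15.5, 15.6, 8.93 and 12.2 CPM and was not called (slope -0.27, edgeR adjusted p = 0.371).

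With these changes the order of levels in the crushed eye differed from that of uninjured eyes. Per kilobase, averaged over days 7 and 11, the highest was kcnk1.S at 60.3 CPM, and kcnk1.L was at 37.4. In the uninjured order kcnk1.S was the 16th, at a median of 8.59 CPM per kb. Lower came kcnip1-like.S at 14.8, kcnma1.1 at 13.6 and kcnip3.L at 9.67 CPM per kb.

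Calcium-activated channels were represented by 3 models. The small-conductance channel kcnn1.L, which in mammals contributes to the afterpotential that follows spikes, had 14.6, 11.0, 1.80 and 0.397 CPM in the crushed eye, against 14.9, 15.2, 14.4 and 14.3 CPM in the contralateral eye. The crushed eye was level at day 1 and far below all uninjured libraries (14.2 to 18.1 CPM) at days 7 and 11. The slope of -1.38 ± 0.26 (edgeR adjusted p = 0.0115) held with any day left out. A further model, kcnn1.1, had 34.6, 33.6, 16.2 and 14.3 CPM against 26.2, 27.5, 28.8 and 20.6 CPM and was not called (slope -0.35, edgeR adjusted p = 0.126). Nor was kcnma1.1, at 48.7, 51.7, 35.7 and 22.9 CPM against 44.8, 51.8, 35.2 and 33.1 CPM (slope -0.15, edgeR adjusted p = 0.437).

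None of the 8 tested inward rectifier models was called for the slope by edgeR. None was over 2-fold lower at days 7 or 11, among only 2 and 3 with enough counts. Of 6 inward rectifiers averaging at least 1 CPM, 2 (kcnj14.L and kcnj2.1) lay below the uninjured range on both days and none above it. The most abundant, kcnj14.L, had 14.5, 15.3, 9.27 and 8.18 CPM in the crushed eye, against 11.7, 16.7, 15.0 and 12.1 CPM in the contralateral eye, with a slope of -0.30 (edgeR adjusted p = 0.229). For kcnj4.L the values were 5.33, 3.67, 3.40 and 2.96 CPM against 5.20, 3.92, 5.95 and 4.89 CPM (slope -0.27, edgeR adjusted p = 0.469). The glial kcnj10.L had 0.996, 2.41, 0.724 and 1.91 CPM against 3.88, 0.918, 0.687 and 1.99 CPM, with the eyes overlapping (slope 0.48, edgeR adjusted p = 0.537). Counts this low limit what could be detected.

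**Figure D4:**
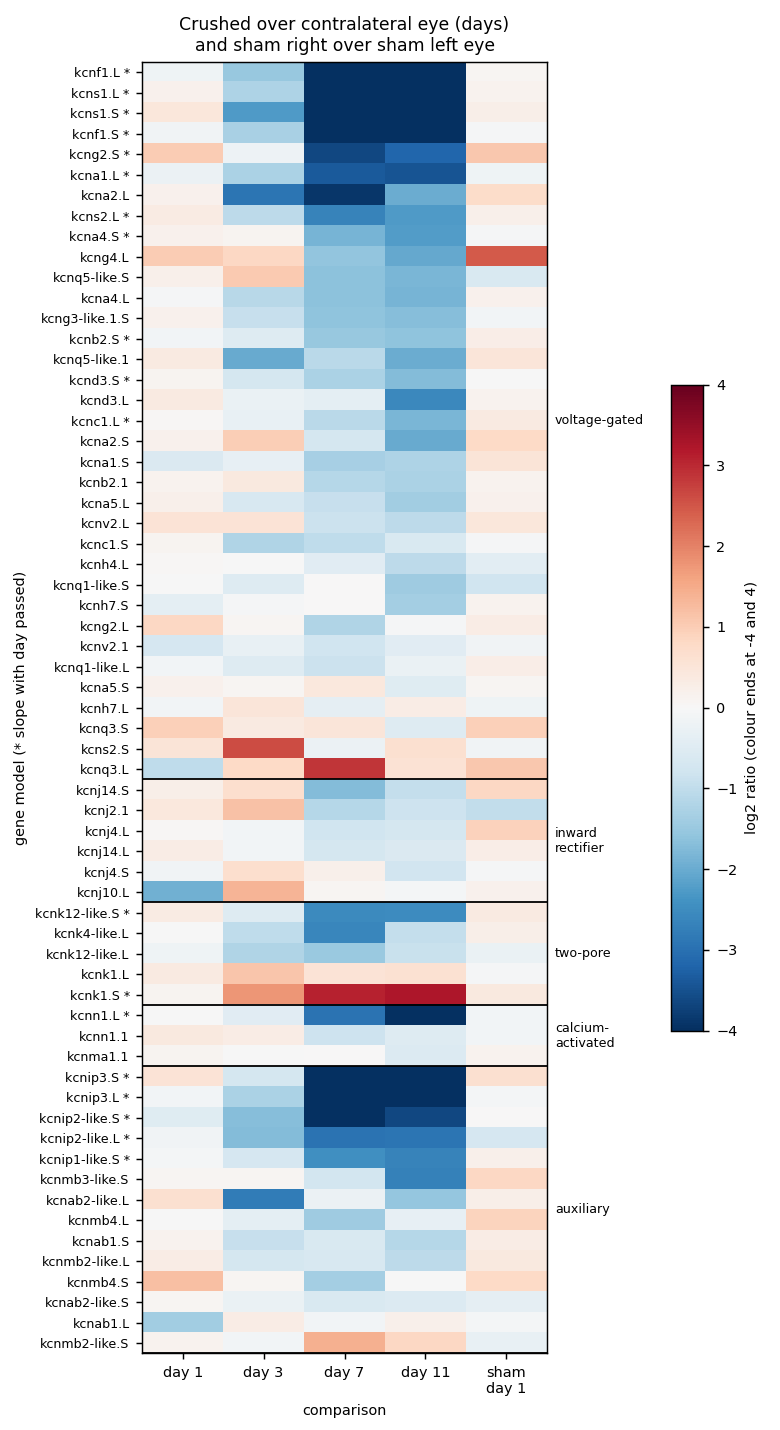
Log2 ratio of the crushed to the contralateral eye at days 1, 3, 7 and 11, and of the sham right to the sham left eye at day 1 (columns, 1 library against 1), for potassium channel models by class (rows), with colour ending at -4 and 4. A star marks the models whose slope with day passed. Blue rows, lower in the crushed eye at days 7 and 11, make up most of the voltage-gated and auxiliary blocks, and the kcnk1.S row is deep red on those days.

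The calls were also counted by the ratio of naive TRAP RNA to total retina. Of the 21 members over 2-fold above total retina, 12 fell with day (57.1%) and 1 rose, against 21.7% and 8.07% of all models in that range. Of the 21 members within 2-fold, 5 fell (23.8%) and 1 rose, against 6.51% and 7.89% of all models. Of the 16 members over 2-fold below total retina none was called, against 3.43% fallen and 3.38% risen of all models. Across the 58 members Spearman's rho between the TRAP ratio and the slope was -0.35, and across 19670 models it was 0.00959, as a description over genes that share the same libraries.

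The copies of a gene did not always pass together. There were 44 pairs of .L and .S copies, and in 30 both were tested. Both copies fell in 4 pairs, kcnf1, kcns1, kcnip2-like and kcnip3. In 9 pairs 1 copy was called, and in 17 neither was. The slope had the same sign in 23 of the 30 pairs. The same shares over all .L and .S pairs of the series are not given here. Whether member copies agree more or less often than others was therefore not tested. The copy that passed was the more abundant by far in kcna1, at an uninjured median of 106 CPM for .L against 5.41 CPM for .S, but the less abundant in kcnk1, at 12.5 CPM for .S against 38.1 CPM for .L. No difference between copies was tested, and near-identical copies can share reads.

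**Figure D5:**
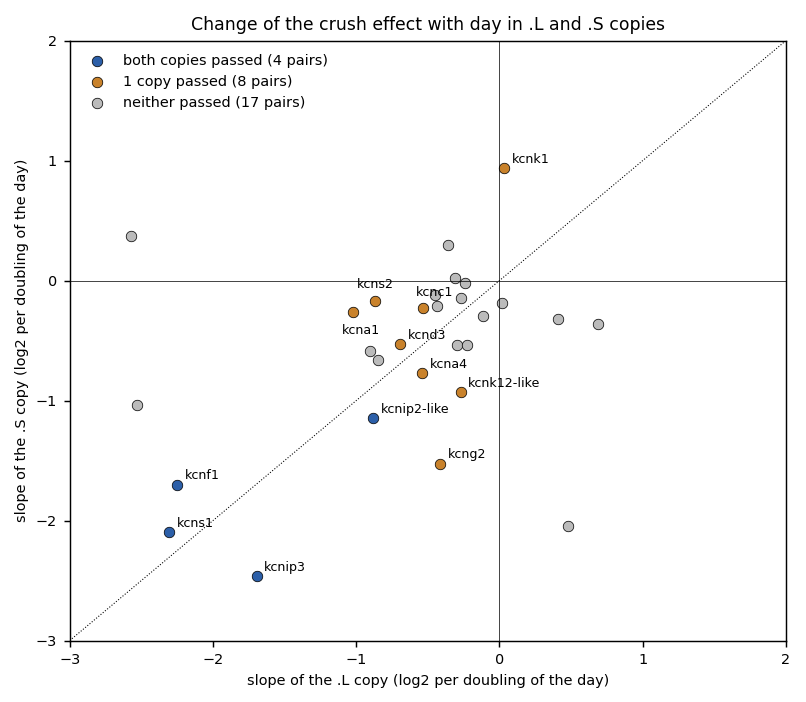
Slope of the crush effect with day (log2 per doubling of the day) of the .L copy (x axis) and the .S copy (y axis) for 29 of the 30 pairs with both copies tested, 1 point per pair, with a dotted line of equal slopes. The 4 pairs in which both copies passed lie below 0 on both axes. So do pairs in which neither copy passed, such as kcng1 at -2.53 for .L and -1.04 for .S. The kcnk1 pair lies near 0 on the x axis, with slopes of 0.03 for .L and 0.94 for .S.

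Genes that work beside potassium channels were read from the same edgeR fit, in which 6.85% of all models fell and 5.83% rose. Of voltage-gated sodium channel models, 6 of 8 tested fell with day, of calcium channel models 5 of 22, of potassium channel partners 7 of 25, and of sodium-potassium pump models 3 of 11. None of these lists had a model that rose. Of 9 HCN and CNG channel models none was called, with 1 at an unadjusted p under 0.05.

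Among partners, dpp10.S, a membrane protein that joins Kcnd channels with the KChIP proteins in mammals, had 333, 140.2, 37.2 and 28.4 CPM in the crushed eye, against 296, 307, 239.7 and 207 CPM in the contralateral eye. Its slope was -0.94 ± 0.12 (edgeR adjusted p = 0.00324). The secreted protein lgi2.L was sparse, at 2.85, 0.447, 0 and 0 CPM in the crushed eye against 0.487, 2.62, 2.80 and 1.65 CPM. Its slope was -3.73 ± 0.65 (edgeR adjusted p = 0.00817), from a log2 ratio of 2.43 at day 1 to no count in the crushed eye at days 7 and 11. Of the sodium channels, the leak channel nalcn.S fell by 0.84 (edgeR adjusted p = 0.00561) and the beta subunit scn3b.S by 1.06 (0.00803). The calcium channel subunits cacna2d2.L and cacna2d2.S fell by 0.74 and 0.62 (edgeR adjusted p = 0.00803 and 0.0108), and the pump regulators fxyd7.S and fxyd7.L by 0.63 and 2.19 (0.00850 and 0.0168).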

How the data were processed

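Expected counts per gene model, with TPM values and model lengths, were deposited by the authors in 1 table per library, per the file headers. TPM was read as deposited and enters no result, and the length column served for values per kilobase. The submitters' processing notes name Trimmomatic 0.33, Bowtie2 2.2.5 and RSEM 1.2.21, while build and gene models are unnamed (not given in the sources used here). Rounding of the expected counts to whole numbers moved library totals by at most 0.000797%.

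Members were matched by symbol. Of the 106, 53 symbols are in the RefSeq gene table of Xenopus_laevis_v10.1, which was used for names only. The members, classes and gene lists were chosen with earlier results of these data known.

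In R 4.3.3, edgeR 4.0.16 (TMM, filterByExpr by eye, robust quasi-likelihood F test, Benjamini-Hochberg adjustment over 26004 models) was fitted to the 4 crush and 4 contralateral libraries with day as a block, and was tested on simulated data. Both eyes of a day come from the same frogs, per the labels' protocols, and deviations of same-day libraries correlated at 0.0427 to 0.0833 across models. Ratios of 1 library to 1 used a prior count of 2 and at least 200 counts over the pair, and have no test. The slope p-values weigh how far the slope lies from 0 against the scatter of 4 pairs of pools around the fitted line. In that test the variance of each model is drawn toward the trend over all models tested. Each p thus rests on more than the scatter of that model's own 4 pairs. Standard errors were worked back from the slope and the F test, and are no separate measure of spread. Depth ranged from 16820571 to 63299998 counts. Alternatives were RLE, upper quartile and total count scaling, other filters, DESeq2 1.42.0, limma-voom (limma 3.58.1), no block, linear day, summed copies and each day left out.

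Members named with values were those called, the 3 highest per kilobase in each class, the 5 highest and lowest TRAP ratios and late ratios, and their other copies. Of each neighbour list, the 2 called models of smallest p were named. The values of 1 gene are not reported here, though it stays in the counts and class sums.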

Additional observations from a re-analysis of the deposited data

Results flagged for a closer look

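The ratio of crushed to contralateral eye differed between days for the potassium channel models below, by edgeR's test of the slope with log2(day). Among voltage-gated models the slopes, in log2 per doubling of the day, were -1.02 for kcna1.L, -0.77 for kcna4.S, -0.48 for kcnb2.S, -0.53 for kcnc1.L and -0.53 for kcnd3.S. For silent subunits they were -2.25 for kcnf1.L, -1.70 for kcnf1.S, -1.53 for kcng2.S, -2.31 for kcns1.L, -2.10 for kcns1.S and -0.87 for kcns2.L. For kcnn1.L the slope was -1.38 and for kcnk12-like.S it was -0.93. The KChIP models had slopes of -0.83 for kcnip1-like.S, -0.88 for kcnip2-like.L, -1.14 for kcnip2-like.S, -1.69 for kcnip3.L and -2.47 for kcnip3.S. The slope of kcnk1.S was 0.94.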

How the results depend on the processing

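With 1 library per condition, single days have no replicate check, and 26 members with few counts were not tested. The number of members that rose with day was 2 in each alternative run, kcnk1.S among them, while 573 to 2541 of all models rose. The number of members that fell, 18, was 14 to 21 under other scalings, filters, tools and a linear day. It was 7 to 21 with a day left out and 11 with copies summed, where 52 members were tested. Over all models 1695 to 2596, 660 to 2622 and 1397 fell in those runs. By the same-frog pairing the fit has day as a block, and without the block 16 fell, 15 of them shared, with kcna4.S, kcnc1.L and kcnf1.L lost. Linear day lost kcng2.S, both kcnip2-like copies, kcns1.S and kcns2.L. Members higher over the 4 days numbered 2 with DESeq2 and 0 to 2 with a day left out, against 0. Members lower numbered 17 with DESeq2 and 0 to 16 with a day left out, against 0. Over all models DESeq2 called 1622 higher and 1458 lower, and edgeR with a day left out 0 to 1611 and 0 to 1067. Under total counts 881 models rose and 2596 fell with day, against 1515 and 1781, and members below the uninjured range were 48, with 4 above, a check chosen after seeing the data.

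The median log2 ratio of members moved to -1.37 at day 7 and -1.69 at day 11 under total counts. It moved to -0.87 at day 7 with no minimum of counts, and to -0.20, -0.91 and -1.22 at days 3, 7 and 11 with 50 counts. Of slopes not called, 4 changed sign. That of kcnc1.S ranged from -0.43 to 0.27 with a day left out, kcns2.S from -1.25 to 0.00861 (0.0542 with limma-voom), kcnk12-like.L from -0.49 to 0.10, and kcnk1.L from -0.30 to 0.0846 (-0.0755 under total counts, -0.00403 with linear day). The cause was not tested.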

Other observations

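Some potassium channel models whose slope edgeR did not call with all 4 days are given here as values, chosen after they were seen. The axonal channel kcna2.L had 1.46, 0.268, 0.111 and 0.873 CPM in the crushed eye at days 1, 3, 7 and 11, against 1.29, 2.37, 2.35 and 3.57 CPM in the contralateral eye (slope -0.85, edgeR adjusted p = 0.314). DESeq2, and edgeR without the day 1 pair, called it lower over the days as a whole. The delayed rectifier kcnb2.1 had 25.1, 45.8, 8.88 and 6.01 CPM in the crushed eye, against 23.0, 35.2, 19.6 and 14.5 CPM, with its highest TRAP value in the crushed eye at day 3 (slope -0.47, edgeR adjusted p = 0.0817). Its slope was called under total counts and without the day 1 or day 3 pair. The two-pore channel kcnk4-like.L had 10.4, 4.52, 1.63 and 4.71 CPM, against 10.6, 9.13, 10.3 and 9.27 CPM (slope -0.47, edgeR adjusted p = 0.248).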
